A study of Komagataella phaffii with 26 samples.

Results

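Komagataella phaffii X-33, a wild type methylotrophic yeast strain formerly known as Pichia pastoris, was moved from acid to alkaline medium on glucose or on glycerol, and the change in mRNA after 60 min at pH 8.0 was compared between these carbon sources. The comparison used 8 of the 26 RNA-seq libraries of the series, chosen by their labels: 2 from glucose at time zero, 2 from glucose after 60 min, and 2 each from glycerol at the same times. For every gene, the 60 min change on glycerol was subtracted from the 60 min change on glucose, so that a positive value marks a more positive change on glucose. All cultures had been grown at 28 °C in YP with either sugar (YPD) or glycerol (YPGly), collected in exponential growth by centrifugation and resuspended in fresh medium of the same carbon source with the buffer TAPS. Time zero was the aliquot at pH 5.5, sampled straight after resuspension, and the stressed aliquot was at pH 8.0. No culture was held at pH 5.5 and sampled later, so each 60 min change also contains elapsed time, handling and fresh medium. The libraries of the glycerol course and of the glucose course carry different code series in their titles, so anything that set the 2 library series apart at 60 min alone cannot be told apart from the carbon source. By the study's methods, time zero and the stressed culture were aliquots of one culture, while the labels do not say which replicate numbers share one. Each group held 2 libraries, labelled as replicates, and the p-values measure the spread between such libraries.

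Values were RPKM, reads scaled to gene length and to the mapped reads of the library, and therefore shares of a library: less of one transcript per cell and more of all others cannot be told apart. The read totals behind the RPKM scale, recovered from the values themselves, were 16.31 to 19.97 M in the 8 libraries, of which 92.41 to 93.14% fell in genes. The study's methods state a higher average of reads per sample, and what sets these totals apart was not examined. Between replicates the log2 ratio of a gene had an SD from 0.1365 (glucose, 60 min) to 0.1962 (glycerol, 60 min), and no library repeated another. Tests were made on log2(RPKM + 1), a scale that understates changes of genes with low RPKM, and all differences and changes below are log2 values on it unless RPKM is stated. A gene passed when the adjusted p of the difference was below 0.05, and a change within one carbon source counted as a 2-fold call with an adjusted p below 0.05, a p below 0.01 and a change of at least 1 in size.

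Glucose enters yeast cells through hexose carriers and is broken down by glycolysis. Glycerol enters by proton symport or through channels, is phosphorylated by glycerol kinase, and feeds glycolysis from the middle, so that hexoses have to be made by gluconeogenesis. Alkaline medium weakens the proton gradient that drives uptake of phosphate, amino acids and other nutrients, and lowers the solubility of iron and copper. In Saccharomyces cerevisiae it is known to induce genes of phosphate and metal uptake and to affect glucose metabolism.

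The change after 60 min differed between the carbon sources for 297 of 5034 genes tested, or 5.90%. It was more positive on glucose for 144 genes (2.86%) and more negative for 153 (3.04%). The sizes were larger on the negative side, with a median of 0.865 and a maximum of 4.21, against 0.662 and 2.14 on the positive side. A difference of at least 1 was reached by 61 genes below and 23 genes above. The number of genes rested on single libraries: it was 88 without replicate 2 of glucose at time zero, 114 without replicate 1 of glycerol at time zero, 138 without replicate 2 of glycerol at 60 min, and 135 and 133 without replicates 1 and 2 of glucose at 60 min. With the replicate number as a block within each course 478 genes passed, and with a block by the runs of library codes in the titles 487. Whichever of the 8 libraries was left out, 73 of the 297 genes passed, 42 of them below and 31 above. Only 128 of the 297 have a description in the deposited annotation, 94 of the negative genes and 34 of the positive, since descriptions were given only for genes that the authors had called changed in these samples. Gene names are those of the deposited annotation, mostly from matches to S. cerevisiae, and roles stated below are known from that yeast unless another source is named. Among described genes 16.6% passed, 4.40% above and 12.2% below, and it is these shares that the counts of the gene lists below stand against.

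Within each carbon source, 2-fold calls were made on glucose for 124 genes up (2.46%) and 111 down (2.21%), and on glycerol for 217 up (4.31%) and 73 down (1.45%). Of the 153 genes with the more negative change on glucose, 44 were called up on glycerol and 36 down on glucose, and 2 of them were called in both ways at once. Of the 144 genes on the positive side, 119 had no 2-fold call on either source, 19 were called up on glucose and 6 down on glycerol. These calls use the same libraries as the difference and describe where it came from.

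**Figure D1:**
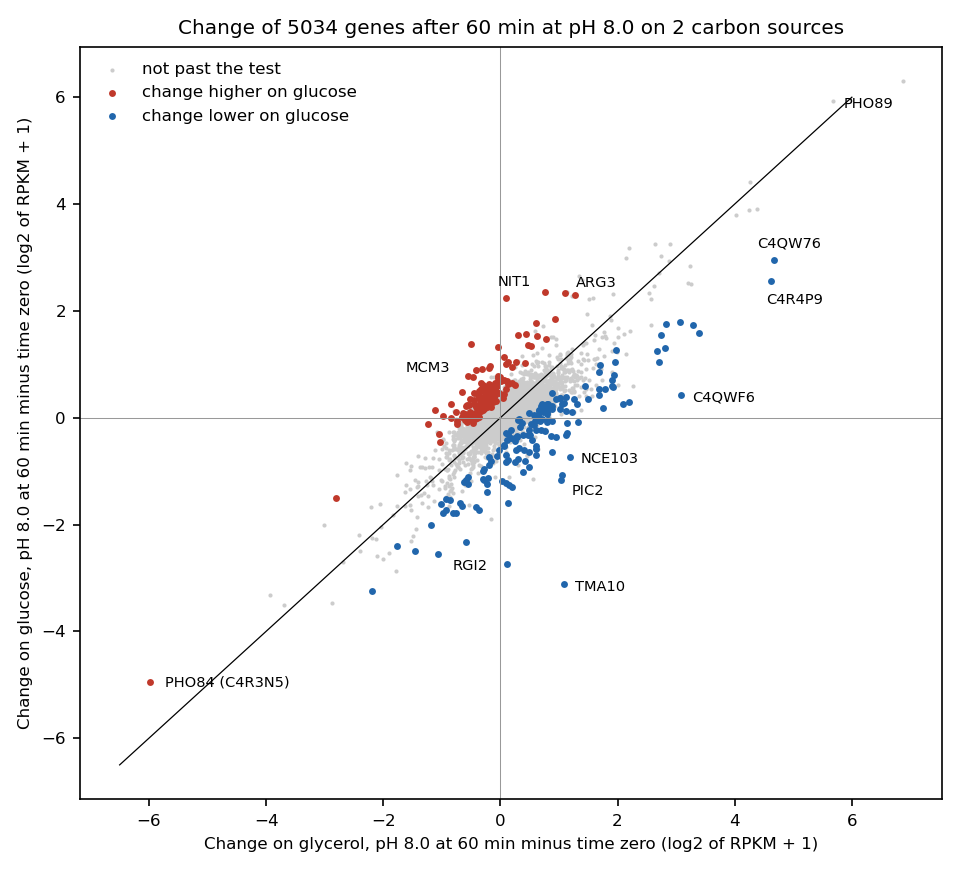
Change of each of 5034 genes between time zero and 60 min at pH 8.0, on glycerol (horizontal axis) and on glucose (vertical axis), both as log2 of RPKM + 1, with a line of equal change. Red points are the 144 genes and blue points the 153 genes whose changes differed at an adjusted p below 0.05. TMA10 and RGI2 lie farthest below the line, NIT1 farthest above, and PHO89 lies close to it.

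TMA10 and RGI2 had the largest differences, and both were high on glucose before the shift and lost that lead. TMA10 (PAS_chr4_0407, chromosome 4, 809530 to 809841 of the GS115 assembly ASM2700v1), which in S. cerevisiae encodes a protein associated with ribosomes, stood at 81.2 and 114 RPKM on glucose at time zero and at 10.1 and 10.2 after 60 min, while on glycerol it went from 6.5 and 10.6 to 20.4 and 17.4. The glucose libraries fell without overlap and on glycerol both 60 min libraries lay above both of time zero, but the glycerol change (1.09, SE 0.46) did not pass its own test (adjusted p = 0.0577). The difference was -4.21 (SE 0.65, adjusted p = 0.00103). RGI2 (PAS_chr1-1_0407, chromosome 1, 1318767 to 1319300), named after a S. cerevisiae gene of respiratory growth, fell from 191.9 and 331.8 to 37.5 and 36.7 RPKM on glucose. On glycerol it stood at 31.2 and 39.9 at time zero and 40.3 and 36.1 after 60 min, with overlap between the times. All 4 libraries at 60 min were thus near the glycerol level of time zero, and the difference was -2.84 (SE 0.31, adjusted p = 9.86e-05). Both calls held with any one of the 8 libraries left out.

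Of the 297 genes, PIC2 and CTH1 were the ones with 2-fold calls of opposite direction at 60 min. The changes behind these calls were near the threshold of 1. They were -1.17 on glucose and 1.04 on glycerol for PIC2, and -1.07 and 1.05 for CTH1. PIC2 (PAS_chr4_0488, chromosome 4, 960926 to 961780) encodes a carrier of the inner mitochondrial membrane that the annotation describes as importing phosphate, and its S. cerevisiae relative also carries copper. It fell on glucose from 65.2 and 49.2 to 31.3 and 19.4 RPKM and rose on glycerol from 15.5 and 18.2 to 33.01 and 38.3. Neither pair of groups overlapped, and the difference was -2.21 (SE 0.30, adjusted p = 0.00052). CTH1, a zinc finger protein of the family that in S. cerevisiae degrades mRNAs of iron-using proteins when iron is scarce, fell from 77.2 and 130.4 to 52.9 and 42.1 RPKM on glucose and rose from 28.9 and 28.5 to 65.6 and 55.9 on glycerol. Its difference of -2.12 (SE 0.44, adjusted p = 0.00825) became -1.75 without replicate 2 of glucose at time zero, the highest of its libraries, and its call was lost. At 15 and 30 min the glucose changes were -2.54 and -1.67 for PIC2, and 0.43 and 0.0047 for CTH1.

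In another set of genes the gap at time zero did not pass its test and the rise on glycerol was the larger, so that the carbon sources were apart at 60 min. C4R4P9, a protein of unknown function, stood between 17.5 and 19.6 RPKM in all 4 libraries of time zero. After 60 min it was at 102.9 and 124.7 on glucose and at 616.4 and 370.1 on glycerol, a rise on both sources with a difference of -2.05 (SE 0.41, adjusted p = 0.00606). C4QW76 went from 30.1 and 29.7 to 230.3 and 243.8 RPKM on glucose and from 43.0 and 39.9 to 1311 and 884.6 on glycerol. The uncharacterised genes C4R4P9, C4QW76 and C4R5B0 rose on glucose by 2.56, 2.95 and 1.59 and on glycerol by 4.62, 4.67 and 3.39. C4QWF6, also uncharacterised, showed the contrast at 60 min more sharply. Its glucose libraries went from 5.2 and 6.6 to 8.3 and 8.1 RPKM, a change that did not pass its test, and its glycerol libraries from 5.6 and 3.5 to 67.8 and 30.1. At 30 min its glucose change did pass (1.185, adjusted p = 0.00174), beside 1.6 on glycerol. The 2 glycerol libraries at 60 min were unlike but lay well above all others, and the difference was -2.66 (SE 0.37, adjusted p = 0.000577). All 4 of these differences passed in every fit with 1 library left out.

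Transcripts of a G-protein regulator and of a Hap subunit were also raised on glycerol at 60 min, with no glucose change past the test at that time. RGS2, named after a S. cerevisiae gene whose product turns off glucose-sensing G-protein signalling, stood at 17.1 and 16.04 RPKM on glucose at time zero and 21.4 and 18.4 after 60 min, against 14.2 and 11.6 and then 60.3 and 55.4 on glycerol. Its rise on glycerol at 60 min was 2.09 (SE 0.19) and the difference -1.84 (SE 0.27, adjusted p = 0.000906). Earlier, RGS2 had risen on glucose too, by 1.22 at 15 min and 1.12 at 30 min (adjusted p = 6.4e-05 and 0.000143), beside 2.22 and 2.67 on glycerol. C4R8H3 is annotated as a subunit of the heme-activated, glucose-repressed Hap complex, which controls respiratory genes in S. cerevisiae. It rose on glycerol from 6.3 and 7.0 to 39.2 and 29.3 RPKM, and on glucose lay between 9.6 and 14.8 at time zero and 60 min. In between, its glucose changes of 1.01 at 15 min and 1.395 at 30 min passed (adjusted p = 0.017 and 0.00186), beside 0.79 and 2.08 on glycerol. Its difference of -1.89 (SE 0.44, adjusted p = 0.0168) lost its call without replicate 1 of glycerol at time zero, replicate 1 of glycerol at 60 min, replicate 1 of glucose at time zero or replicate 2 of glucose at 60 min (adjusted p from 0.056 to 0.072).

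**Figure D2:**
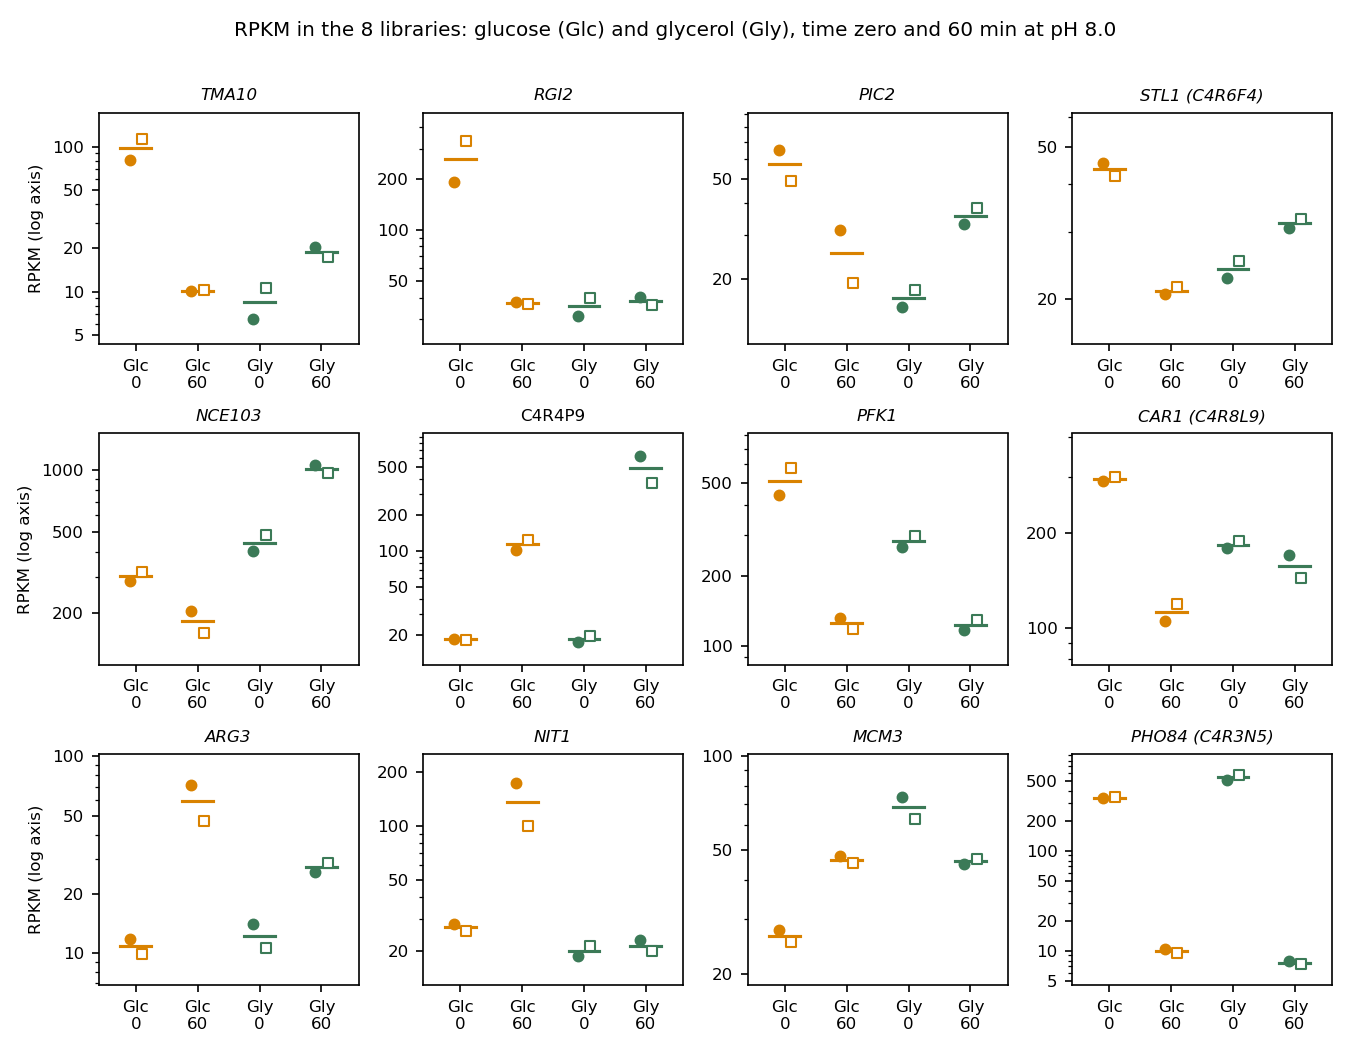
RPKM (log axis, a different range in each panel) of 12 genes in the 8 libraries: glucose (orange) and glycerol (green) at time zero and after 60 min at pH 8.0. Filled circles are replicate 1, open squares replicate 2, and lines the mean of both. TMA10 and RGI2 start high on glucose alone, C4R4P9 starts at the same level on both and ends higher on glycerol, and PFK1 and MCM3 end at about the same level on both carbon sources.

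NCE103, ACC1 and BIO2 were lower on glucose than on glycerol at 60 min. NCE103 encodes carbonic anhydrase, which converts CO2 to bicarbonate. It stood at 288.8 and 318.0 RPKM on glucose and 403.7 and 480.1 on glycerol at time zero, and at 205.0 and 161.2 against 1050 and 964.4 after 60 min. At 60 min the rise on glycerol (1.19, SE 0.30) passed and the glucose change (-0.73, SE 0.30) did not (adjusted p = 0.063). Earlier, NCE103 had risen on both sources, by 2.08 on glucose and 2.09 on glycerol at 15 min and by 1.01 and 2.14 at 30 min. The difference at 60 min was -1.93 (SE 0.42, adjusted p = 0.0108). Without replicate 1 of glycerol at time zero, replicate 2 of glucose at time zero or replicate 2 of glucose at 60 min it was -1.80, -1.86 or -1.75, and its call was lost. ACC1, the biotin-containing acetyl-CoA carboxylase that uses bicarbonate for fatty acid synthesis, fell on glucose from 124.8 and 119.5 to 87.2 and 76.04 RPKM and rose on glycerol from 182.3 and 147.3 to 222.7 and 279.5. Its difference was -1.18 (SE 0.26, adjusted p = 0.0102), and its call was lost without replicate 2 of either 60 min group (adjusted p = 0.065 on glycerol and 0.053 on glucose). BIO2, the iron-sulfur enzyme biotin synthase, rose on glycerol from 6.4 and 7.5 to 22.9 and 28.6 RPKM and stood at 14.6 and 14.7 and then 17.1 and 16.4 on glucose, with a difference of -1.56 (SE 0.30, adjusted p = 0.0056). ACC1 and BIO2 were chosen after their values were seen.

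The difference of the changes equals the gap between carbon sources at 60 min minus the gap at time zero. At time zero the level differed between glucose and glycerol for 1709 genes (33.9% of those tested), and after 60 min for 1623 (32.2%). Of the 153 genes with the more negative change on glucose, 91 differed at time zero and not at 60 min, 38 at 60 min and not at time zero, 18 at both times in opposite directions, 5 at both in one direction and 1 at neither. For the 144 positive genes these numbers were 66, 56, 19, 3 and 0. All these counts come from the same 8 libraries as the difference, so they describe the genes and give no separate evidence. TMA10 (time-zero gap 3.38, 60 min gap -0.83) and RGI2 (2.80 and -0.04) are examples of a lead on glucose that was no longer past the test, and C4R4P9 (-0.02 and -2.07) and NCE103 (-0.54 and -2.46) of a gap that opened.

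**Figure D3:**
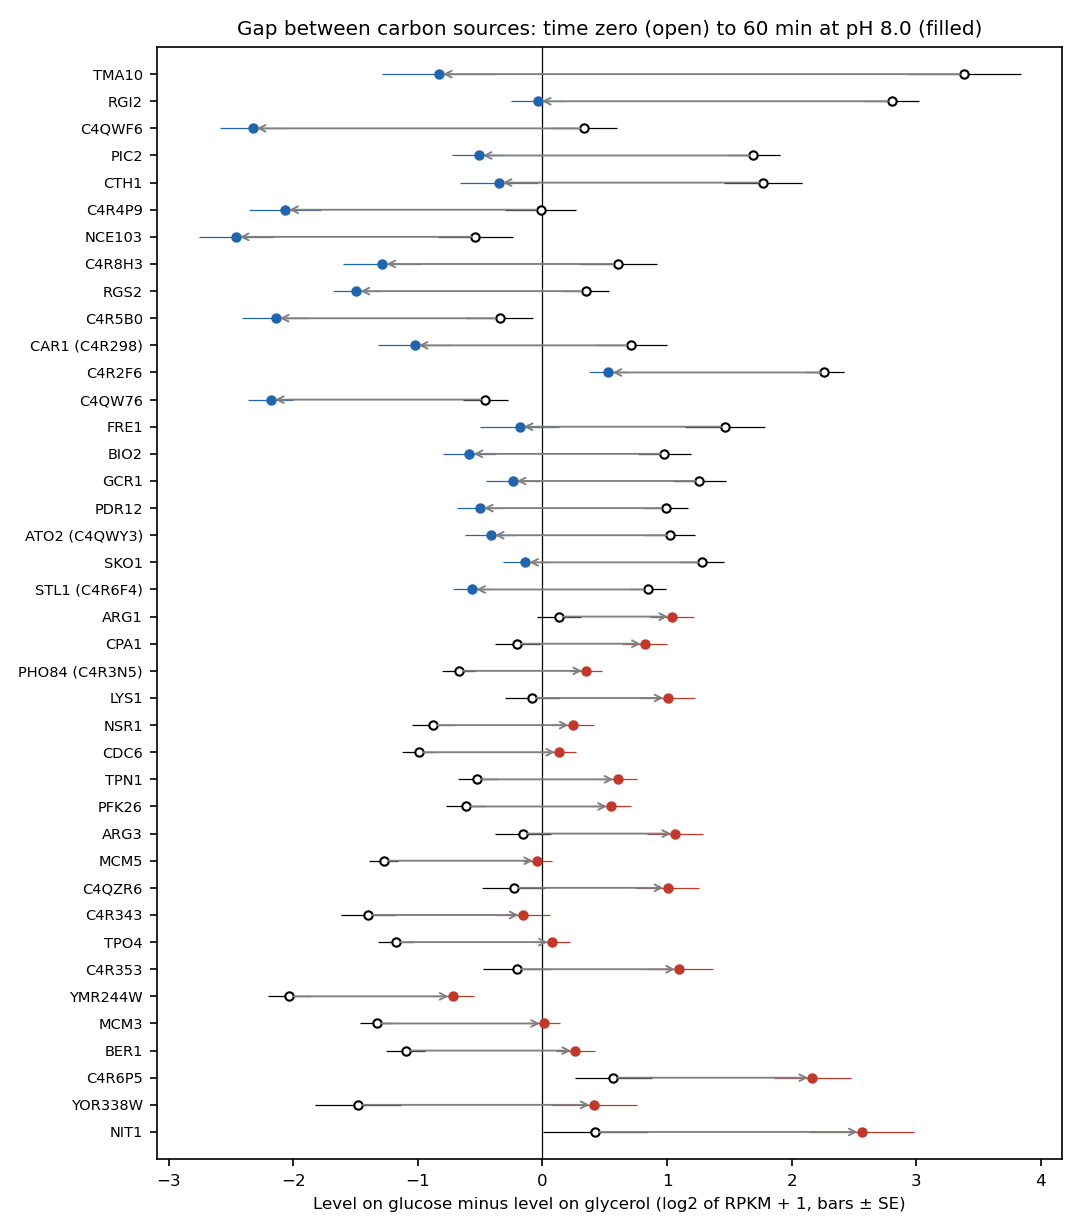
Level on glucose minus level on glycerol (log2 of RPKM + 1, bars ± SE) at time zero (open circles) and after 60 min at pH 8.0 (filled) for the 20 named genes with the most negative and the 20 with the most positive difference of changes among those past the test. Arrows run from time zero to 60 min. TMA10, RGI2, PIC2 and MCM3 move toward 0, and C4R4P9, NCE103 and NIT1 move away from it.

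Most described glycolysis genes fell on glucose, and 4 of 13 fell further there than on glycerol. Of the 13 genes, 10 were called down on glucose and 4 on glycerol. All 111 genes called down on glucose and all 73 called down on glycerol were described genes. Down calls were therefore more frequent among described genes than the 2.21% and 1.45% over all genes tested. The median gap of the 13 genes at time zero was 0.844, higher on glucose. Their median change was -1.35 on glucose and -0.84 on glycerol. The median of their differences was -0.52, beside 0.007 over all genes and -0.193 over all described genes. Besides the 4 genes with the more negative change, 1 of the 13 passed as more positive on glucose. PFK1, the alpha subunit of phosphofructokinase, fell from 443.1 and 577.5 to 131.8 and 118.6 RPKM on glucose and from 265.6 and 297.0 to 117.5 and 129.2 on glycerol. The groups did not overlap at time zero and did after 60 min, and the difference was -0.83 (SE 0.15, adjusted p = 0.00338). A phosphoglycerate mutase gene, GPM1 (C4R5A6), went from 156.9 and 216.5 to 67.6 and 53.6 RPKM on glucose and from 83.8 and 85.2 to 51.5 and 51.95 on glycerol, a difference of -0.90 (SE 0.17, adjusted p = 0.00453). PGI1, phosphoglucose isomerase, differed by -0.61 (adjusted p = 0.0257), and GLK1, named as a glucokinase but described as a protein of unknown function, by -0.64 (adjusted p = 0.0302). For GPM1 (C4R5A6), PFK1 and GLK1, replicate 2 of glucose at time zero was the highest library, and without it their differences were -0.67, -0.64 and -0.45. GPM1 (C4R5A6) and PFK1 passed in all 8 leave-one-out fits. GLK1 did not pass without that library (adjusted p = 0.17), without replicate 1 of glycerol at time zero, or without any single library of 60 min (adjusted p from 0.061 to 0.16).

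Regulators of glycolysis moved in different directions. PFK26, named after the S. cerevisiae kinase that makes fructose 2,6-bisphosphate, the activator of phosphofructokinase, rose on glucose from 8.7 and 7.9 to 33.7 and 28.1 RPKM and on glycerol from 15.96 and 10.9 to 21.2 and 20.2. The rise was larger on glucose by 1.17 (SE 0.22, adjusted p = 0.005). GCR1, which bears the name of a S. cerevisiae activator of glycolytic genes, fell on glucose from 39.9 and 35.02 to 15.2 and 14.2 RPKM. On glycerol its libraries overlapped between time zero and 60 min (11.1 and 20.3, then 17.1 and 17.9), and the difference was -1.50 (SE 0.30, adjusted p = 0.00676). The changes of GCR1 at 15 and 30 min were -1.77 and -1.52 on glycerol and -3.03 and -2.18 on glucose. Of 8 described genes of hexose transport and glucose sensing, GCR1 and ADR1 passed, both below. ADR1, a zinc finger factor that activates genes for non-fermentable carbon in S. cerevisiae, rose on glycerol by 1.09 (SE 0.16) and its change on glucose was 0.27 (SE 0.16). Its difference of -0.82 (SE 0.22, adjusted p = 0.0362) passed only without replicate 1 of glycerol at 60 min among the 8 leave-one-out fits, and was -0.52 (adjusted p = 0.18) without replicate 2 of that group. ADR1 (PAS_chr4_0487, chromosome 4, 956789 to 960256) lies next to PIC2.

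The 60 min changes of glycerol symporter genes were more negative on glucose than on glycerol. STL1 encodes the proton symporter that takes up glycerol, and 3 genes with this name were described, all past the test. STL1 (C4R6F4) fell on glucose from 45.5 and 42.0 to 20.6 and 21.4 RPKM and rose on glycerol from 22.7 and 25.2 to 30.65 and 32.4, with a difference of -1.41 (SE 0.21, adjusted p = 0.000906). STL1 (C4QVV9) stood at 15.1 and 12.7 and then 12.5 and 13.2 RPKM on glucose, with overlap, and rose from 8.6 and 8.6 to 19.1 and 20.9 on glycerol (difference -1.23, SE 0.26, adjusted p = 0.00979). STL1 (C4R6H9) fell from 44.1 and 40.2 to 18.9 and 18.3 RPKM on glucose and from 23.1 and 24.8 to 19.9 and 18.7 on glycerol (difference -0.84, SE 0.15, adjusted p = 0.00337). The symporter genes were thus higher on glucose than on glycerol at time zero in all 3 cases, and C4R6F4 and C4QVV9 were lower on glucose at 60 min. How the authors' counting divided reads among similar STL1 copies was not examined, so the values of single copies are uncertain.

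Enzymes of glycerol, lactate and hexose synthesis did not pass. Besides STL1, the list of gluconeogenesis and glycerol, lactate and two-carbon use held 9 genes, and none passed. GUT1, glycerol kinase, stood at 59.9 and 47.2 RPKM and then 63.1 and 54.1 on glucose, and at 116.5 and 124.9 and then 181.9 and 197.0 on glycerol (difference -0.51, SE 0.31, adjusted p = 0.36). PCK1, which makes phosphoenolpyruvate for gluconeogenesis, lay between 24.3 and 30.1 RPKM in all glucose libraries and went from 78.6 and 85.3 to 48.2 and 47.7 on glycerol (difference 0.74, SE 0.41, adjusted p = 0.316). JEN1, the lactate permease, rose on glycerol from 6.8 and 8.5 to 41.3 and 39.1 RPKM and stood at 3.9 and 2.2 and then 5.9 and 4.2 on glucose. Its difference was large and imprecise at -1.67 (SE 0.65, adjusted p = 0.137). With a replicate block within each course, JEN1 and PCK1 passed (adjusted p = 0.000746 and 0.031).

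ALD4 and both ATO2 genes had more positive changes on glycerol. ALD4, named after the mitochondrial aldehyde dehydrogenase that makes acetate in S. cerevisiae, rose from 100.4 and 94.5 to 175.1 and 165.7 RPKM on glucose and from 95.0 and 105.7 to 369.7 and 407.2 on glycerol, so that levels which overlapped at time zero were apart at 60 min (difference -1.14, SE 0.24, adjusted p = 0.00763). Genes named ATO2, a family that exports ammonium or takes up acetate, were also lower relative to glycerol. ATO2 (C4R1C0) rose from 47.6 and 50.5 to 94.3 and 84.7 RPKM on glucose and from 39.8 and 41.9 to 145.0 and 123.3 on glycerol (difference -0.83, SE 0.15, adjusted p = 0.00347). ATO2 (C4QWY3), at under 10 RPKM, differed by -1.44 (SE 0.29, adjusted p = 0.00606), or by -1.23 (adjusted p = 0.051) without replicate 2 of glucose at time zero. Both ATO2 genes were chosen after their values were seen. The gene named ADH2 is described in the annotation as mitochondrial alcohol dehydrogenase isozyme III, so name and description may not mean the same enzyme. It fell from 4301 and 6261 to 1674 and 1357 RPKM on glucose and from 1966 and 2196 to 1329 and 1125 on glycerol. Its difference of -1.02 (SE 0.24, adjusted p = 0.0165) lost its call without replicate 1 of glycerol at either time or without replicate 2 of glucose at either time (adjusted p from 0.06 to 0.11). The other 10 of the 12 described fermentation and acetaldehyde genes did not pass.

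No member passed in the lists of TCA cycle genes and of complex III, cytochrome c and complex IV, which does not show that their changes were alike. Of 11 described TCA cycle genes and 10 of complex III, cytochrome c and complex IV, 0 passed, beside 16.6% of all described genes. Their median differences were 0.405 and 0.346, with 10 of 11 and 9 of 10 values above 0, beside a median of -0.193 over all described genes. COR1 (0.38, adjusted p = 0.0661) and CYT1 (0.434, adjusted p = 0.0741) were nearest to the threshold. CYC1, cytochrome c, went from 4327 and 3744 to 1694 and 1666 RPKM on glucose and from 2470 and 2393 to 982 and 1062 on glycerol, a fall of 1.26 and 1.25 that left a difference of -0.01 (SE 0.37). KGD2, a subunit of oxoglutarate dehydrogenase, differed by 0.28 (SE 0.16, adjusted p = 0.333), and aconitase, ACO1, by 0.42 (SE 0.42, adjusted p = 0.621). The TCA list also holds LYS4 and LYS21, which act in lysine synthesis.

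Several arginine synthesis genes rose more on glucose, and arginine breakdown genes fell more there. Of 6 described genes of arginine synthesis, 3 passed above and 0 below, with a median difference of 0.765, and of 3 described genes of arginine and proline breakdown, 3 passed below, with a median of -1.165. ARG3, ornithine carbamoyltransferase, rose on glucose from 11.8 and 9.9 to 71.7 and 47.1 RPKM and on glycerol from 13.97 and 10.5 to 25.9 and 28.6 (difference 1.23, SE 0.32, adjusted p = 0.0289). CPA1, the small subunit of carbamoyl phosphate synthetase, rose from 43.6 and 38.1 to 239.9 and 174.8 RPKM on glucose and from 44.99 and 49.05 to 115.8 and 115.0 on glycerol (difference 1.02, SE 0.25, adjusted p = 0.0238). ARG1, argininosuccinate synthetase, went from 135.2 and 114.3 to 522.0 and 383.6 RPKM on glucose and from 114.8 and 111.6 to 247.1 and 190.2 on glycerol (difference 0.91, SE 0.25, adjusted p = 0.0369). In all 3 genes the carbon sources did not overlap at 60 min, the gap at time zero did not pass its test, and replicate 1 was the higher glucose library at 60 min. Another member of the list, URA2, acts in pyrimidine synthesis and stood at -0.53. Without that library the differences were 0.93, 0.80 and 0.69 (adjusted p = 0.16, 0.13 and 0.19). ARG1, ARG3 and CPA1 also lost their calls without replicate 2 of glucose at time zero, replicate 2 of glycerol at 60 min or replicate 1 of glycerol at time zero (adjusted p from 0.061 to 0.17), ARG1 and CPA1 without replicate 2 of glycerol at time zero (0.078 and 0.073), and ARG3 and CPA1 without replicate 1 of glycerol at 60 min (0.072 and 0.053).

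CAR1 encodes arginase, which splits arginine into ornithine and urea, and 2 genes have this name. CAR1 (C4R8L9) fell from 291.4 and 300.3 to 105.2 and 119.0 RPKM on glucose and stood at 178.6 and 188.7 and then 170.0 and 143.8 on glycerol, a change that did not pass (difference -1.17, SE 0.23, adjusted p = 0.00581). CAR1 (C4R298) fell from 137.3 and 149.8 to 41.6 and 51.96 RPKM on glucose, with 87.0 and 87.7 and then 99.9 and 91.7 on glycerol. Its difference of -1.74 (SE 0.41, adjusted p = 0.0174) lost its call without replicate 1 of glycerol at either time, replicate 2 of glucose at time zero or replicate 1 of glucose at 60 min (adjusted p from 0.052 to 0.09). CAR2, ornithine transaminase, fell on both sources, by 1.79 on glucose and 0.81 on glycerol (difference -0.99, SE 0.22, adjusted p = 0.0119), and did not pass without replicate 2 of glucose at time zero (adjusted p = 0.072) or replicate 1 of glucose at 60 min (adjusted p = 0.081).

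Of 18 described nitrogen catabolite genes, NIT1 alone passed. NIT1 (PAS_chr2-1_0037, chromosome 2, 65610 to 66530), a nitrilase gene, rose on glucose from 28.3 and 25.8 to 173.0 and 99.3 RPKM and stood at 18.7 and 21.1 and then 22.8 and 20.0 on glycerol. It had the largest positive difference of all genes past the test, 2.14 (SE 0.60, adjusted p = 0.0395), and the 2 glucose libraries at 60 min were unlike. The call was lost with every library left out but replicate 2 of glucose at 60 min (adjusted p from 0.07 to 0.18). The median difference of the 18 genes was -0.196, and 7 were called down on glucose and 5 on glycerol. As for glycolysis, these down calls stand against those of described genes, which held all 111 on glucose and all 73 on glycerol. DIP5, a permease of dicarboxylic amino acids chosen after its values were seen, fell from 51.5 and 53.0 to 21.8 and 20.8 RPKM on glucose, with 22.8 and 24.9 and then 24.8 and 28.2 on glycerol (difference -1.40, SE 0.22, adjusted p = 0.00127). The changes of DIP5 at 15 and 30 min were -2.04 and -1.31 on glycerol and -2.23 and -1.82 on glucose.

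Vitamin genes with a larger rise on glucose were TPN1 and NPT1. TPN1, the plasma membrane transporter of pyridoxine, rose from 12.7 and 10.99 to 38.7 and 34.9 RPKM on glucose and from 16.9 and 17.98 to 21.7 and 26.2 on glycerol (difference 1.12, SE 0.22, adjusted p = 0.00569), the only 1 of 12 described thiamine and vitamin B6 genes to pass. NPT1, which salvages nicotinate for NAD synthesis and was chosen after its values were seen, started alike on both sources at 36.8 to 38.8 RPKM and reached 109.3 and 88.2 on glucose against 56.3 and 49.8 on glycerol. Its difference of 0.89 (SE 0.21, adjusted p = 0.0157) lost its call without replicate 1 of glycerol at time zero, replicate 2 of glycerol at 60 min, replicate 2 of glucose at time zero or replicate 1 of glucose at 60 min (adjusted p from 0.064 to 0.099).

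FET3, FRE1, CTH1 and the copper transporter gene CTR1 had more negative changes on glucose. Of 14 described genes of siderophore transport, ferric reduction and iron uptake, 2 passed, both below, and of 12 iron regulators and iron-sulfur assembly genes, CTH1 alone did. These are 14.3% and 8.33% of the members, beside 12.2% of all described genes below. FET3, the multicopper ferroxidase of high-affinity iron uptake, fell on glucose from 405.5 and 383.4 to 115.9 and 133.5 RPKM and on glycerol from 362.9 and 376.5 to 251.5 and 219.2 (difference -1.004, SE 0.18, adjusted p = 0.00324), and held in all 8 leave-one-out fits. FRE1, which reduces ferric and cupric ions, rose from 251.0 and 287.0 to 886.9 and 350.7 RPKM on glucose and from 78.0 and 119.2 to 545.7 and 735.8 on glycerol. CTR1, the high-affinity copper transporter, stood at 732.4 and 901.2 and then 1812 and 835.2 RPKM on glucose, and rose from 260.4 and 350.0 to 1064 and 1197 on glycerol. In both genes replicate 1 of glucose at 60 min was more than 2-fold above replicate 2. The differences were -1.65 for FRE1 (SE 0.45, adjusted p = 0.0362) and -1.301 for CTR1 (SE 0.37, adjusted p = 0.0452), and they were -0.98 and -0.74 (adjusted p = 0.18 and 0.23) without replicate 2 of glucose at 60 min. They lost their calls as well without replicate 1 of glycerol at time zero, replicate 2 of glycerol at 60 min or either replicate of glucose at time zero (adjusted p from 0.059 to 0.19), and CTR1 without replicate 1 of glycerol at 60 min (adjusted p = 0.07). CTR1 was chosen after its values were seen. The median difference of the 14 iron uptake genes was -0.479, with a median change of 0.237 on glucose and 1.099 on glycerol.

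MCM3, MCM5 and CDC6, which act in DNA replication, were lower on glucose at time zero, and at 60 min no gap between the carbon sources passed its test. No list of replication genes was tested. MCM3 and MCM5 encode subunits of the hexameric MCM helicase, and CDC6, chosen after its values were seen, encodes the protein that loads it at origins. MCM3 rose on glucose from 27.8 and 25.3 to 47.7 and 45.2 RPKM and fell on glycerol from 74.0 and 62.9 to 45.1 and 46.9 (difference 1.34, SE 0.19, adjusted p = 0.00052). MCM5 rose from 14.9 and 12.7 to 26.2 and 27.3 RPKM and fell from 37.4 and 32.1 to 26.4 and 28.8 (difference 1.23, SE 0.17, adjusted p = 0.000519). CDC6 went from 20.1 and 17.9 to 37.7 and 36.6 RPKM on glucose, and from 42.7 and 34.9 to 32.8 and 34.7 on glycerol (difference 1.12, SE 0.20, adjusted p = 0.00314). The carbon sources did not overlap at time zero in any of these genes, the gaps at 60 min were 0.01, -0.04 and 0.13, and no call depended on 1 library.

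Genes of nucleolar function moved both ways. Of 4 described ribosome biogenesis genes, NSR1 passed above and NOP13 below, with a median difference of 0.45. NSR1, a nucleolar protein needed for rRNA processing, fell on glycerol from 1871 and 1803 to 926.4 and 655.5 RPKM and stood at 1034 and 964.8 and then 974.4 and 873.7 on glucose (difference 1.12, SE 0.24, adjusted p = 0.00979). It did not pass without replicate 2 of glycerol at 60 min (0.87, adjusted p = 0.069) or replicate 2 of glucose at time zero (1.07, adjusted p = 0.055). MPP10, named after a component of the small subunit processome and chosen after its values were seen, rose on glucose from 64.0 and 56.7 to 90 and 85.5 RPKM and overlapped between times on glycerol (difference 0.63, SE 0.13, adjusted p = 0.00748), with adjusted p = 0.054 and 0.055 without replicate 1 of glycerol or replicate 2 of glucose at time zero. NOP13 fell from 293.9 and 296.8 to 144.6 and 150.7 RPKM on glucose and from 133.4 and 148.1 to 118.6 and 111.1 on glycerol (difference -0.71, SE 0.15, adjusted p = 0.0104), and lost its call without the same libraries (adjusted p = 0.065 and 0.051).

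The large rise of PHO89 did not differ past the test, and the large fall of PHO84 (C4R3N5) was smaller on glucose. PHO89, the sodium-phosphate cotransporter that works at alkaline pH, rose from 28.5 and 26.4 to 1828 and 1609 RPKM on glucose and from 39.9 and 42.9 to 2030 and 2325 on glycerol. Its changes of 5.92 and 5.68 differed by 0.24 (SE 0.20, adjusted p = 0.548). PHO84 (C4R3N5), the proton-coupled phosphate transporter, fell from 334.4 and 345.1 to 10.5 and 9.5 RPKM on glucose and from 510.3 and 575.5 to 7.9 and 7.4 on glycerol, a smaller fall on glucose by 1.02 (SE 0.18, adjusted p = 0.00338). The sources did not overlap at either time, and their order was reversed between the times. Another gene of this name, PHO84 (C4R7K5), changed by -2.09 on glucose and -1.44 on glycerol. Its difference of -0.65 had the opposite sign and did not pass (adjusted p = 0.349). C4QZW1 rose by 1.26 on glucose and 1.98 on glycerol (difference -0.71, SE 0.16, adjusted p = 0.0154) and lost its call without replicate 2 of any of the 4 groups (adjusted p from 0.061 to 0.074). The cyclin gene PCL1 passed above (0.74, SE 0.21, adjusted p = 0.0442), but in the leave-one-out fits only without replicate 1 of glucose at time zero, and not with a replicate block (adjusted p = 0.0518). In all, 2 of 12 described phosphate and polyphosphate genes passed above and 1 below, beside 4.40% and 12.2% of all described genes.

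No member passed in the lists of chaperones, ER folding, sterol synthesis, and trehalose and glycogen, which does not show that their changes were alike. Of 15 described cytosolic and mitochondrial chaperones, 10 genes of ER folding and translocation, 5 of sterol synthesis and 3 of trehalose and glycogen, 0 passed, with median differences of -0.063, -0.106, -0.104 and -0.428. KAR2, the ER chaperone BiP, rose from 696.5 and 575.2 to 1409 and 1494 RPKM on glucose and from 818.4 and 965.5 to 2130 and 1987 on glycerol (difference -0.01, SE 0.27). CNE1, calnexin, rose by 1.91 and 1.87 and differed by 0.03 (SE 0.26). HSP12, a small heat shock protein of the membrane, rose from 111.1 and 172.1 to 685.6 and 912.0 RPKM on glucose and from 223.2 and 238.9 to 2090 and 2318 on glycerol (difference -0.74, SE 0.47, adjusted p = 0.387). ERG2 and ERG25, of sterol synthesis, differed by -0.62 and 0.37 (adjusted p = 0.0984 and 0.171). With a replicate block, HSP12 passed where the block was set within each course (adjusted p = 0.0335) and ERG2 where it followed the library codes (adjusted p = 0.0349).

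Of 19 described oxidative stress genes, 3 passed below, or 15.8%, beside 12.2% of all described genes. AHP1 (C4QYS9), a peroxiredoxin, rose on glycerol from 6.1 and 4.1 to 13.3 and 12.8 RPKM and overlapped between times on glucose at 8.38 to 10.35 (difference -1.11, SE 0.22, adjusted p = 0.00656). MXR1, methionine sulfoxide reductase, fell from 408.9 and 301.0 to 204.7 and 225.8 RPKM on glucose and rose from 118.9 and 136.5 to 200.3 and 187.4 on glycerol. Its difference of -1.305 (SE 0.30, adjusted p = 0.0157) lost its call without replicate 1 of glycerol at time zero, glucose at time zero or glucose at 60 min (adjusted p = 0.08, 0.068 and 0.069). YHB1, a flavohemoglobin, differed by -0.58 (adjusted p = 0.0271), and passed only without replicate 1 of glycerol at 60 min among the leave-one-out fits. The median of the 19 was 0.041, with 10 values above 0 and 9 below. Another gene named AHP1 (C4QXN4) changed by 1.15 on glucose and 0.37 on glycerol. Its difference of 0.78 did not pass (adjusted p = 0.767), and neither did those of TSA1 (0.65) and HYR1 (0.76).

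In the remaining lists 1 to 3 members passed. Of 19 sulfate, methionine and cysteine genes, MET4 passed below (-0.86, adjusted p = 0.0201). Of 15 peroxisome, beta-oxidation and methanol genes, SPS19 (-1.31, adjusted p = 0.0394) and PEX2 (-0.73, adjusted p = 0.0134) passed below and C4R343 (1.24, adjusted p = 0.0238) above. SPS19 and C4R343 are both annotated as peroxisomal dienoyl-CoA reductases and went in opposite directions. TIP1 (-1.06, adjusted p = 0.0398) passed among 11 cell wall genes, and HRK1 (C4R6H2; -0.58, adjusted p = 0.0365), named after a kinase that activates the proton pump, among 8 genes of proton pumps and cation transport. Of the 8 leave-one-out fits, PEX2 passed in 5, MET4 in 3, C4R343 in 2, SPS19 and TIP1 in 1 each and HRK1 (C4R6H2) in 0, with adjusted p from 0.054 to 0.19 where the call was lost. Replicate 2 of glucose at time zero was among the libraries that each of them but C4R343 depended on, and C4R343 stood at 0.95 without replicate 2 of glycerol at 60 min. No described gene belonged to the lists of mitochondrial ATP synthase, cytosolic ribosomal proteins or the proteasome, and 2 belonged to that of mitochondrial ribosomal proteins, neither past the test. All lists draw only on the described genes, which were themselves selected for changing in these samples, so their counts are no independent evidence of direction.

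**Figure D4:**
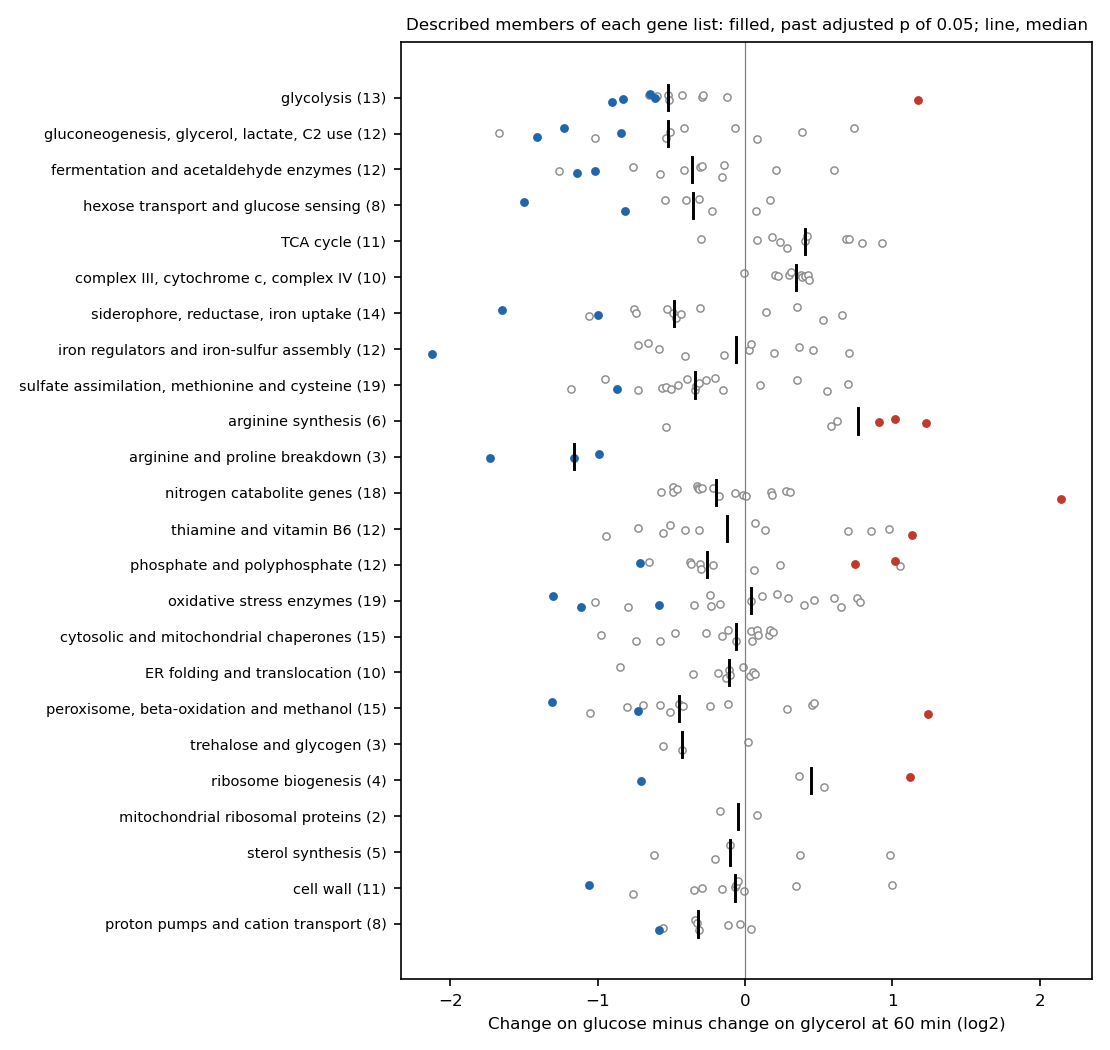
Change on glucose minus change on glycerol at 60 min (log2) of each described member of 24 gene lists, with the number of members in brackets. Filled points passed an adjusted p of 0.05 (red above 0, blue below), open points did not, and the black line is the median of the list. Arginine synthesis lies above 0 apart from 1 gene, arginine breakdown below, and 12 of 13 glycolysis genes lie below.

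Other genes with large differences had mixed or unknown functions. YMR244W, uncharacterised, stood at 103.9 and 107.3 RPKM on glucose and 455.3 and 415.3 on glycerol at time zero, and at 173.8 and 223.4 against 326.8 and 323.7 after 60 min, so that the sources came closer without overlap (difference 1.31, SE 0.24, adjusted p = 0.00347). TPO4, a polyamine transporter, fell on glycerol from 102.2 and 113.4 to 51.2 and 47.6 RPKM, the level of the glucose libraries at both times, 46.9 to 52.3 (difference 1.25, SE 0.20, adjusted p = 0.00168). BER1, an SRR1 domain protein, rose on glucose from 7.6 and 7.0 to 19.3 and 20.2 RPKM and overlapped between times on glycerol (difference 1.36, SE 0.22, adjusted p = 0.00168). C4R2F6, uncharacterised, fell from 648.8 and 914.1 to 155.6 and 149.9 RPKM on glucose and from 154.7 and 164.5 to 106.8 and 104.1 on glycerol (difference -1.73, SE 0.22, adjusted p = 0.000475). SKO1 and PDR12 were chosen after their values were seen. SKO1, named after a S. cerevisiae repressor of the osmotic stress pathway, rose on glycerol from 19.8 and 22.5 to 45.4 and 50.0 RPKM, near the glucose libraries at 60 min, 42.6 and 43.8 (difference -1.42, SE 0.25, adjusted p = 0.00324). PDR12, an ABC transporter of weak acid anions, fell from 33.03 and 27.4 to 4.4 and 4.2 RPKM on glucose and from 12.4 and 17.3 to 5.8 and 7.3 on glycerol (difference -1.49, SE 0.25, adjusted p = 0.00257). All 6 of these calls held with any one library left out.

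YOR338W and C4R6P5, both uncharacterised, had the next largest positive differences after NIT1, 1.89 (SE 0.49, adjusted p = 0.0288) and 1.60 (SE 0.44, adjusted p = 0.0362). YOR338W rose on glucose from 29.0 and 35.7 to 86.6 and 84.1 RPKM and on glycerol went from 105.1 and 79.6 to 78.1 and 52.3. C4R6P5 rose on glucose from 45.6 and 40.8 to 261.5 and 192.7 RPKM and was at 32.3 and 25.5 and then 52.7 and 46.02 on glycerol. YOR338W passed only without replicate 2 of glycerol at time zero or replicate 1 of glycerol at 60 min, and C4R6P5 in none of the 8 leave-one-out fits (adjusted p from 0.054 to 0.16). C4R353 (1.302, adjusted p = 0.0492) and C4QZR6 (1.24, adjusted p = 0.0487) were near the threshold and passed in 1 of these fits each. AQR1, a plasma membrane multidrug transporter, fell from 600.2 and 892.4 to 109.8 and 89.9 RPKM on glucose and from 113.7 and 165.6 to 41.6 and 36.4 on glycerol, and its difference of -1.08 (SE 0.35) did not pass (adjusted p = 0.0749), but did with a replicate block within each course (adjusted p = 0.0103).

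The same subtraction at 15 and 30 min, which shares the time-zero libraries, gave some genes that were apart early and others late. For PIC2 the values were -2.80, -2.35 and -2.21 at 15, 30 and 60 min, for STL1 (C4R6F4) -1.59, -1.58 and -1.41, and for MCM3 1.25, 1.04 and 1.34. TMA10 (-3.51, -3.08 and -4.21) and RGI2 (-2.20, -2.24 and -2.84) were likewise at most of their size at the first time. Against these, C4QWF6 stood at -0.15, -0.41 and -2.66, C4R4P9 at -0.09, -0.09 and -2.05, and C4QW76 at 0.42, 0.21 and -1.72, so their values moved mainly between 30 and 60 min. Arginine genes lay between, with CAR1 (C4R8L9) at -0.01, -1.09 and -1.17 and ARG3 at -0.0039, 0.91 and 1.23. FET3 went from 1.58 at 15 min through 0.10 to -1.004. The SE at each time is close to that at 60 min, and the differences between times were not tested.

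**Figure D5:**
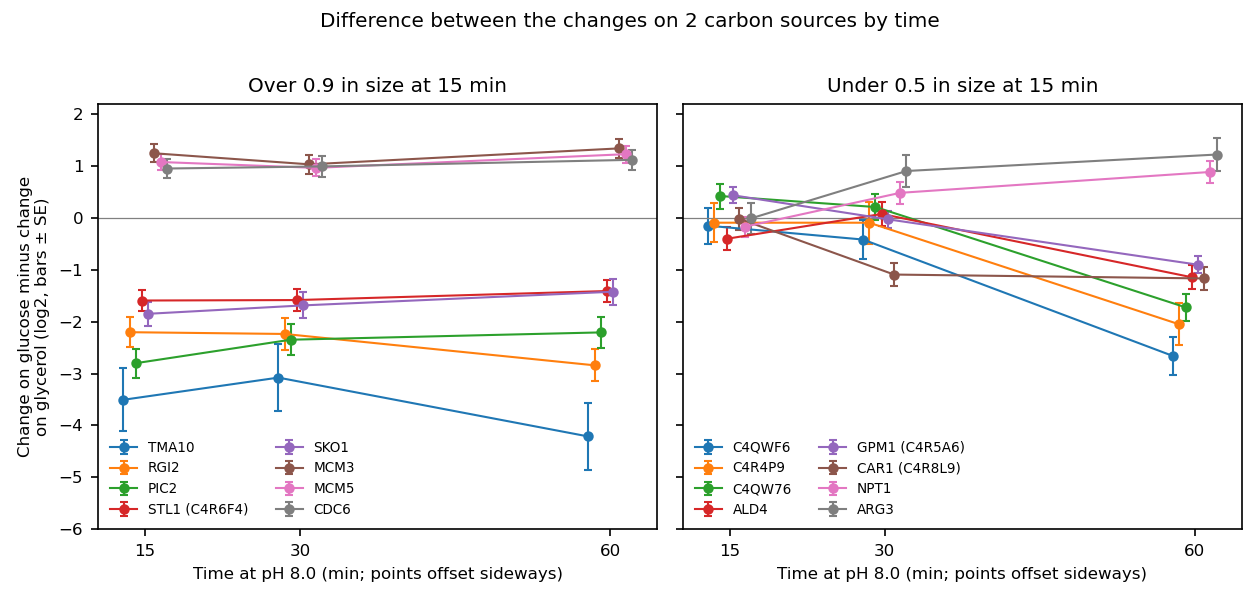
Change on glucose minus change on glycerol (log2, bars ± SE) after 15, 30 and 60 min at pH 8.0 for 16 genes chosen after their values were seen, with points offset sideways. The genes on the left, among them TMA10, PIC2 and MCM3, were away from 0 at 15 min, and those on the right were within 0.5 of it and moved by 60 min, C4QWF6 to -2.66 and ARG3 to 1.23.

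In a further glycerol course, taken to pH 8.2 with its own libraries, the changes at 60 min can be set beside those at pH 8.0. The rises of C4QWF6, C4R4P9 and C4QW76 were 4.52, 5.72 and 5.92 there against 3.09, 4.62 and 4.67 at pH 8.0, and those of TMA10, PIC2 and CTH1 were 2.03, 1.75 and 2.96 against 1.09, 1.04 and 1.05. NCE103 stood at 1.25 against 1.19. MCM3 and MCM5 were at -0.04 and 0.10 in that course and stood at -0.56 and -0.32 at pH 8.0, and TPO4 was at -0.85 against -1.11. NOP13, MXR1 and FRE1 were at -0.86, -0.04 and 1.87 against -0.29, 0.60 and 2.70. With this course in place of that to pH 8.0, their differences from glucose were -0.14, -0.67 and -0.81 and did not pass. Of the 153 negative genes 126 passed with the same sign in that setting, and of the 144 positive genes 94. The pH of this course differs from that of the glucose cultures, so these values stand beside the comparison and not within it.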

How the data were processed

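Libraries were prepared by the authors from poly-A RNA without keeping strand, sequenced as single reads, mapped with Bowtie2 to the GS115 assembly and quantified per gene with SeqMonk. The deposited table holds RPKM per gene for 26 libraries, as made by the authors. RPKM values were whole multiples of 1 read (100% within 0.05 read), which gave the depths. A second deposited table holds the authors' DESeq2 log2 fold changes and p-values for genes they called changed; only its names, accessions and descriptions were used.

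From RPKM, log2(RPKM + 1) was fitted with limma 3.58.1 (R 4.3.3), 1 mean for each of 12 groups over all 26 libraries, with a trend and 14 residual degrees of freedom, for the 5034 of 5040 genes that reached 1 RPKM in 2 or more libraries. The Benjamini-Hochberg adjustment ran over all of them. The function was tested on simulated data. Named genes are the 12 largest differences in each direction past an adjusted p of 0.05, up to 4 such members of each of 27 gene lists (or the 2 with the highest mean RPKM where none passed), genes with opposite calls, 11 genes named by earlier results, and those marked as chosen after their values were seen. The comparison, lists and genes were chosen with earlier results of these data known. Lists match keywords in descriptions or accessions. The libraries do not keep strand, so for 150 gene models that overlap another the reads cannot be assigned to either. Coordinates of all 5040 gene models match assembly ASM2700v1.

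Alternatives varied the libraries fitted, the replicate block, pseudocount, filter, scaling, trend, the glycerol libraries at time zero and each library in turn.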

Additional observations from a re-analysis of the deposited data

Results flagged for a closer look

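The comparison itself asks whether 60 min changes differ between glucose and glycerol, and limma's test of that difference passed for 297 genes. PIC2 (-2.21) and CTH1 (-2.12) are listed besides because their changes were called at least 2-fold in opposite directions, down on glucose and up on glycerol. No group of this comparison had enough libraries to test for an outlying one.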

How the results depend on the processing

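The number of genes whose changes differed was 297. It was 584 when the 8 libraries were fitted alone, 84 with a difference of at least 1 required in addition, and 930 with the glycerol course to pH 8.2 in place of that to pH 8.0, an alternative chosen after seeing the data. With 1 library left out it ranged from 88 to 227. Same-numbered libraries of time zero and 60 min deviated together only weakly (r over genes of 0.111 on glucose and 0.0746 on glycerol), and no label says that a number marks one culture, although library codes run in sequence within a number and the study's methods took both times from one culture; with the replicate number as a block within each course 478 genes passed, and with a block by series of library codes 487. Of the named genes, JEN1, AQR1, HSP12, ERG2 and PCK1 gained a call under one or both blocks and PCL1 lost its call. Pseudocounts of 0.1 and 5, no filter, a filter of RPKM of at least 5 in 4 of 8 libraries, median-ratio scaling, no trend and 4 glycerol libraries at time zero gave 289 to 344 genes. Median-ratio scaling gave 134 higher and 210 lower, and with 4 glycerol libraries at time zero 221 of the 297 genes passed. The counts of 2-fold calls within each carbon source stayed within 1.5 times of 235 on glucose and 290 on glycerol under every alternative run; leaving out 1 library gave 215 to 253 and 279 to 316. Median-ratio scaling gave 100 up and 130 down on glucose, and 183 up and 87 down on glycerol. No named gene past the test changed sign under any of these alternatives, the pH 8.2 course aside. With that course, 143 of the 144 positive genes and all 153 negative genes had the same sign. The cause of these shifts was not tested.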
